A study of Mus musculus with 9 samples.

Results

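Malat1, Neat1, Meg3, Rian, Mirg, Miat and Snhg11 are long noncoding RNAs that stay largely in the nucleus. The 7 genes were taken by symbol. Of them, 6 had counts among the 31053 genes of the count matrices, and Rian was not analysed here. The cortex and hippocampus of male C57BL/6 mice gave 9 single-nucleus libraries, 3 in each of 3 groups. Young AAV-EGFP mice were 5 months old at tissue collection, and aged AAV-EGFP and aged AAV-B3GNT3 mice were 19 months old. By the paper's methods, aged mice came from the National Institute on Aging colony and young ones from Jackson Laboratories. Age and supplier therefore cannot be told apart in comparisons with young mice. Every mouse, controls included, had received an adeno-associated virus of the PHP.V1 capsid 8 weeks earlier, with EGFP alone or EGFP-P2A-B3GNT3 under a claudin-5 promoter that is active in endothelial cells. B3GNT3 is a glycosyltransferase that extends mucin-type O-glycans of the endothelial glycocalyx, and nuclei other than endothelial ones were therefore not the cells targeted by the promoter.

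Long noncoding RNAs of this kind act in the nucleus as scaffolds. Malat1 accumulates in nuclear speckles, which hold splicing factors. Neat1 is the architectural RNA of paraspeckles, bodies that retain certain RNAs and proteins, and it is made in a short and a long form. Meg3, Rian and Mirg lie in a row in the imprinted Dlk1-Dio3 domain and are expressed from the maternal chromosome, where they host microRNAs and small nucleolar RNAs. Miat, also called Gomafu, forms its own nuclear domain in neurons and binds splicing factors. Snhg11 is a host gene of small nucleolar RNAs that is found mainly in neurons.

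In the GENCODE vM21 annotation of GRCm38, the build of the files, Malat1 (ENSMUSG00000092341) lies at chr19:5795690-5802672 on the minus strand and Neat1 (ENSMUSG00000092274) 22035 bases away at chr19:5824708-5845478 on the same strand. Meg3 (ENSMUSG00000021268, chr12:109541001-109571726), Rian (ENSMUSG00000097451, chr12:109603940-109661716) and Mirg (ENSMUSG00000097391, chr12:109729764-109749460) follow each other on the plus strand within 208460 bases. Miat (ENSMUSG00000097767) is at chr5:112213228-112229395 on the minus strand. Snhg11 (ENSMUSG00000044349) is at chr2:158375638-158386145 on the plus strand and is annotated as protein-coding, although it is known as a noncoding host gene. Genes on the opposite strand overlap Malat1 (Gm37376), Meg3 (Gm26906), Mirg (Gm24321) and Miat (Gm26953), and whether reads were assigned by strand is not given in the sources used here.

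Libraries of this kind are primed on runs of A, so the 3′ ends of Malat1 and Neat1 are shown. Neither Malat1 nor the long form of Neat1 ends in an added poly(A) tail. A genome-encoded A-rich tract folds into a triple helix with 2 U-rich stretches instead. Capitals mark the U-rich stretches and the A-rich tract. The Malat1 bases are 6587 to 6691 of Malat1-201 (single exon, chr19:5795982-5796086, minus strand), and the Neat1 bases are the end of the 20771 of Neat1-201 (single exon, chr19:5824708-5824812, minus strand).
Malat1: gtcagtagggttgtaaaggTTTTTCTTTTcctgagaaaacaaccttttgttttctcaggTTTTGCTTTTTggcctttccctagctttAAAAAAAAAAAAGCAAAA
Neat1 long form: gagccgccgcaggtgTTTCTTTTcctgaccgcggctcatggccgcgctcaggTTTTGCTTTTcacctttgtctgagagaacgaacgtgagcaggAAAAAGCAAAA
The short form of Neat1 (Neat1-202) ends instead at a polyadenylation site. Its last 60 bases, in exon 2 of 2 (chr19:5842307-5842366, minus strand), hold the AATAAA signal in capitals.
Neat1 short form: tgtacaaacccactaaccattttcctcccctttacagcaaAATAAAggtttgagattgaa
Both forms share a start, and the gene counts do not tell them apart.

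Miat is shown for its repeats of TACTAAC, a sequence bound by the splicing factors SF1 and Quaking. Miat-205 (9163 bases) held 6 copies between its bases 4941 and 5623. The same motif stood 1 time in Neat1-201 and in none of the longest transcripts of the other listed genes. Of 761 annotated transcripts within 10% of the length of Miat-205, 2 had at least as many copies (0.263%), Miat-205 itself included. The stretch with the last 3 copies, in exon 7 of 7 (chr5:112216751-112216810, minus strand), carries them in capitals.
Miat: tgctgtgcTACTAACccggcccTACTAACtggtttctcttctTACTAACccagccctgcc

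The Meg3 promoter, from RefSeq (GRCm38.p6), covers 250 bases before and 50 after the start (chr12:109540746-109541045, plus strand). Capitals mark CCAAT at 100 bases before the start, the cyclic AMP response element TGACGTCA at 57 bases and the TATA sequence TATATAA at 27 bases. It is shown because Rian and Mirg lie downstream of Meg3 on the same strand.
Meg3 promoter: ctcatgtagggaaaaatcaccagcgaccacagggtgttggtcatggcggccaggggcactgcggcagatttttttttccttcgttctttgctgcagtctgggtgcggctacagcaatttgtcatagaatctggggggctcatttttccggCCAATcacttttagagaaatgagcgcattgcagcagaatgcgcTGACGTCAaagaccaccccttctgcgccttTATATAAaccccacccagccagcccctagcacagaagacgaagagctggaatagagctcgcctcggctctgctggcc
On either strand, TGACGTCA was found in 1.79% of the 32851 promoters of that length, TATATAA in 3.24% and CCAAT in 37.4%. Among 7 promoters of the listed genes in the RefSeq table, Meg3 alone held TGACGTCA or TATATAA, and CCAAT stood in those of Meg3 and Mirg.

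Mirg is a primary transcript of microRNAs, and 26 mature microRNAs from 14 hairpins lie within it in RefSeq. Meg3 spans 3 and Rian 6, while 106 lie between the start of Meg3 and the end of Mirg. These microRNAs were not measured by the libraries. A selection from Mirg is printed with the seed, bases 2 to 8, in capitals. The first pair are well-known neuronal microRNAs, at chr12:109733781-109733802 and chr12:109734145-109734166 on the plus strand.
miR-382-5p: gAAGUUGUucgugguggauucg
miR-134-5p: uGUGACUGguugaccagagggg
The next pair were the only microRNAs in Mirg that shared a seed, and lie at chr12:109735669-109735692 and chr12:109739132-109739152.
miR-453: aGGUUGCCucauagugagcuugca
miR-496a-5p: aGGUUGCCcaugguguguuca

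The libraries held 77823 barcodes with 568993541 UMIs (unique molecular identifiers, 1 per captured RNA molecule), or 47332047 to 79964605 per library. After filters and doublet removal 70340 nuclei remained, 5782 to 9280 per library. Clusters were made without the listed genes and named by fixed markers, which gave 9 classes with at least 10 nuclei in every library: excitatory neurons (19367 nuclei), inhibitory neurons (10903), astrocytes (8381), oligodendrocytes (20240), oligodendrocyte precursor cells or OPCs (2390), microglia (2311), brain endothelial cells or BECs (739), pericytes (965) and fibroblasts (1184). Unnamed clusters held 3860 nuclei, with 1218 in a cluster of too few markers, 916 in one of few UMIs and the rest in clusters that held markers of a pair of classes. At most 37 barcodes were shared by 2 libraries. The mouse gene B3gnt3 had 1 to 6 UMIs in the BECs of the young AAV-EGFP libraries, 0 in those of the aged AAV-EGFP libraries and 0 to 4 in those of the aged AAV-B3GNT3 libraries. Whether the delivered sequence is counted in that row is not given in the sources used here. Levels are given as CPM (UMIs of a gene per 1000000 UMIs), summed over the nuclei of a class in a library and scaled by the trimmed mean of M values. UMIs lie at priming sites and were not scaled by transcript length, so each gene was compared with itself across classes and groups and not with other genes.

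Malat1 was present in 100% of nuclei in every class, also after every nucleus was thinned to 1000 UMIs. Its level averaged 56310 CPM ± 11239 (SD, n = 9 libraries) in pericytes, the class where it was highest, and 23967 ± 5709 in OPCs, where it was lowest. These are shares of the UMIs of a class and not UMIs per nucleus. Library medians were 1492 to 2387 UMIs per nucleus in pericytes and 8564.5 to 12655 in excitatory neurons. Pericytes exceeded oligodendrocytes, the next class, in 9 of 9 libraries (adjusted p = 0.0110, exact sign-flip permutation test of the paired difference, two-sided, Benjamini-Hochberg over 48 neighbouring pairs of all listed genes). Oligodendrocytes, fibroblasts, astrocytes and BECs followed between 43152 and 37382 CPM, and no neighbouring pair among these differed beyond the spread over libraries (adjusted p = 0.0975 to 0.929). BECs were above excitatory neurons in 9 of 9 libraries (adjusted p = 0.0110). Excitatory neurons and microglia did not differ beyond their spread, and microglia exceeded inhibitory neurons (adjusted p = 0.0245). Inhibitory neurons (24062 CPM) and OPCs did not differ beyond their spread (adjusted p = 0.985). The smallest p that 9 pairs allow is 0.00391.

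Neat1 ranged from 1916 CPM ± 689 in oligodendrocytes to 15.03 ± 3.15 in excitatory neurons. Fibroblasts followed at 745 ± 255, BECs at 579 ± 199, astrocytes at 362 ± 138 and pericytes at 321 ± 132. Each of these steps passed the test (adjusted p = 0.0110 to 0.0188) except that from astrocytes to pericytes (adjusted p = 0.375). In a finer clustering, where a cluster led by Bnc2 joined the fibroblasts, their Neat1 averaged 1323 ± 391. Microglia stood at 159 ± 29.7 and OPCs at 44.4 ± 11.7, each below the class before it in 9 of 9 libraries. Inhibitory neurons (16.3 ± 4.91) and excitatory neurons did not differ beyond their spread (adjusted p = 0.681). After thinning, 76.7% of oligodendrocytes and 1.52% of excitatory neurons had a Neat1 UMI, with library medians of 1530.5 to 2508 and 8564.5 to 12655 UMIs per nucleus before thinning, which left out 128 nuclei of the young AAV-EGFP, 938 of the aged AAV-EGFP and 277 of the aged AAV-B3GNT3 group. Without thinning the shares were 90.1% and 13.7%. After an estimated background from other nuclei was subtracted, Neat1 was at 0 in both neuronal classes in every library and at 1351 to 3292 CPM in oligodendrocytes. Values were cut at 0 in this subtraction.

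Meg3, Mirg and Snhg11 were highest in inhibitory and then excitatory neurons. Meg3 averaged 8149 CPM ± 655 in inhibitory and 7017 ± 618 in excitatory neurons, and inhibitory neurons were higher in 9 of 9 libraries (adjusted p = 0.0110). Mirg averaged 188 ± 29.7 and 137 ± 32.9 in the same classes (9 of 9, adjusted p = 0.0110), and Snhg11 3303 ± 323 and 3048 ± 215 (8 of 9, adjusted p = 0.0245). The other 7 classes were lower, with means from 2944 to 825 CPM for Meg3, from 61.3 to 13.8 for Mirg and from 1451 to 470 for Snhg11. Thinned to 1000 UMIs, 99.7% of excitatory neurons and 54.8% of astrocytes had a Meg3 UMI (100% and 87.3% without thinning), and 94.5% and 37.8% had a Snhg11 UMI (100% and 74.0%). For Mirg the shares were 13.4% in excitatory neurons, 16.4% in inhibitory neurons and 1.497% in astrocytes (71.0%, 70.6% and 4.25% without thinning). The astrocytes' library medians were 2555 to 3610 UMIs per nucleus.

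Miat was the exception among the neuronal transcripts. It averaged 288 CPM ± 22.6 in excitatory neurons and 92.3 ± 13.8 in inhibitory neurons. Excitatory neurons exceeded the next class, microglia (99.6 ± 31.6), in 9 of 9 libraries (adjusted p = 0.0110), and microglia and inhibitory neurons did not differ beyond their spread (adjusted p = 0.805). The microglial level rested on the clustering: in the finer one it was 53.7 ± 16.5, and with background subtracted 11.1. OPCs stood at 74.6 ± 9.89, below inhibitory neurons (adjusted p = 0.0313). Astrocytes were lowest at 32.8 ± 10.8. After thinning, a Miat UMI was seen in 25.2% of excitatory neurons, 8.91% of inhibitory neurons and 3.55% of astrocytes (90.2%, 43.4% and 9.58% without thinning).

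**Figure D1:**
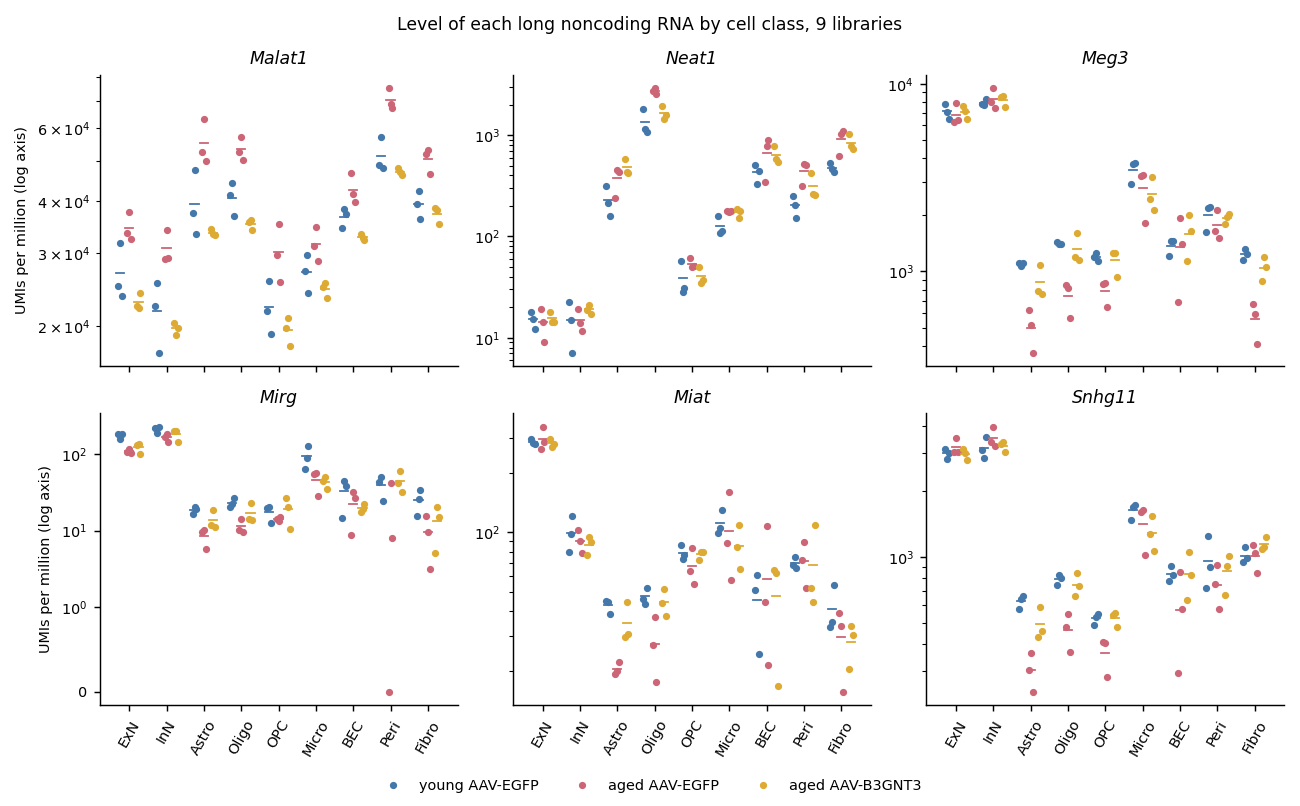
Level of each gene (CPM, log axis; the Mirg axis is linear below 1) in the 9 classes, with 1 point per library coloured by group and a bar at the group mean where no library is at 0. Neat1 sits near 15 CPM in both neuronal classes and above 1000 in oligodendrocytes, while Meg3, Mirg and Snhg11 are highest in neurons and Miat in excitatory neurons (ExN, InN: excitatory and inhibitory neurons).

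The neuronal transcripts counted in other classes were set beside an estimate of neuronal background. The share of 7 neuronal genes (Snap25, Syt1, Rbfox3, Sv2b, Slc17a7, Camk2a, Stmn2) in a class was divided by that in the whole library. In classes other than neurons, this ratio was taken as the percent of UMIs from the library's mixed RNA, called neuronal background here. It was 7.90 to 21.03% in astrocytes, 11.7 to 27.9% in oligodendrocytes, 9.20 to 20.4% in OPCs and 30.1 to 60.5% in microglia. With the library's mean profile subtracted in this proportion, Meg3 fell to a mean of 7.26 CPM in astrocytes, 29.1 in oligodendrocytes and 202 in OPCs, and Mirg to 0 in every astrocyte and oligodendrocyte library. In the neuronal classes the proportion was set by myelin genes instead. Excitatory neurons, where it was 8.07 to 20.2%, kept 7226 CPM of Meg3. In fibroblasts 743 CPM (523 to 983) of Snhg11 was left, beside 21.2 (0 to 93.4) of Meg3. The high Meg3, Mirg, Miat and Snhg11 in microglia stood beside a cluster of mixed nuclei. In a finer clustering, 165 of the 2311 microglial nuclei joined a cluster that took no name and had 6060 CPM of Meg3, and the microglial class of that clustering averaged 1565 ± 423 CPM for Meg3, 30.6 ± 15.1 for Mirg and 887.5 ± 186 for Snhg11.

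The finer clustering divided neurons further into 12 excitatory and 5 inhibitory clusters with at least 10 nuclei in every library, which are described here without a test. Inhibitory neuron clusters led by Kcnmb2 and by Ankfn1 had the highest Meg3, 10798 CPM ± 1105 and 10660 ± 1075, and Mirg of 235 ± 41.2 and 232 ± 47.99. The inhibitory cluster led by Rarb (3478 nuclei) had 5229 ± 611 of Meg3 and the lowest Miat of the neuronal clusters, 30.1 ± 8.17 against 84.2 ± 5.04 in the Kcnmb2 cluster and 189 ± 26.2 in the Ankfn1 cluster. Among excitatory clusters Miat was highest in the one led by Fam19a1 (451 ± 72.8, 939 nuclei) and in the one led by Galntl6 (384 ± 62.1, 1009 nuclei), and lowest in those led by Vwc2l (170 ± 32.9) and Gm32647 (180 ± 32.5).

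A cluster of 1218 nuclei led by Glis3 met no class rule and was lower than those neuronal clusters in 3 of the transcripts. Meg3 was 1772 CPM ± 382 in it (1308 to 2381 over 9 libraries), Snhg11 602 ± 87.2 and Mirg 33.7 ± 10.2. Miat was 324 ± 58.6, within the range of the excitatory clusters. Its nuclei numbered 44 to 291 per library. In fibroblasts, the cluster led by Bnc2 had 2231 CPM ± 593 of Neat1, above the mean of the fibroblast class, which did not hold these nuclei.

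**Figure D2:**
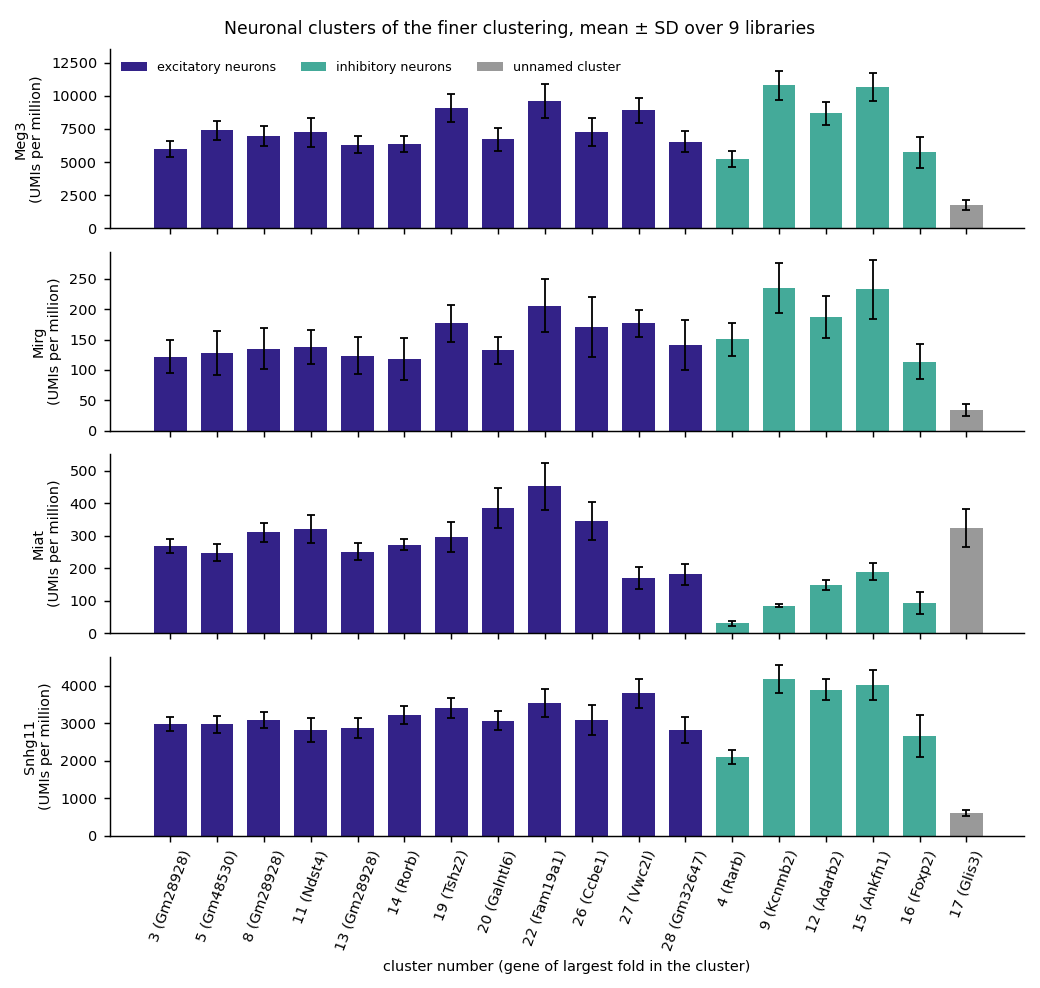
Mean level (CPM, linear axes from 0) of Meg3, Mirg, Miat and Snhg11 in neuronal clusters of the finer clustering and in the unnamed cluster 17, with SD over 9 libraries as error bars. Meg3, Mirg and Snhg11 drop in cluster 17 while Miat stays at 324 CPM, and Miat is lowest in the inhibitory cluster led by Rarb.

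Likeness across the class means was described by Pearson's r of log2(CPM + 1) over 9 classes, among 6898 genes with at least 50 CPM in some class. The genes most like Meg3 were Dlgap2 (r = 0.995), Hs6st3 (0.993) and Trank1 (0.993), and those most like Mirg were March4 (0.993), Zmat4 (0.993) and Cnnm1 (0.992). Miat was nearest to Nell2 (0.990), Car10 (0.987) and Arpp21 (0.987), and Snhg11 to Mtus2 (0.990), Bcl11b (0.978) and Nell1 (0.974). Neat1 was nearest to Fth1 (0.990), which encodes ferritin heavy chain, then Baz2b (0.976) and U2af1 (0.954), and Malat1 to Lama2 (0.948), Vamp2 (0.923) and E130102H24Rik (0.909). The points share libraries and depth, and no p is given.

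The first comparison asked how the aged AAV-EGFP brain differed from the young one. Changes with age are differences between these groups, which also differed in supplier. With edgeR's quasi-likelihood test and Benjamini-Hochberg adjustment over all genes of a class, 15 of 52 gene-by-class tests of the listed genes were called at an adjusted p under 0.05, which is 28.8%, against 9.15% of all gene-by-class tests. Calls up numbered 3, all of Neat1, and calls down 12. Each library counts as a separate sample, as labelled, and p-values measure the spread between these libraries, part of which may be technical.

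Mirg fell with age in excitatory neurons. Its level was 182.3, 160.9 and 186.1 CPM in the young AAV-EGFP libraries, 108.5, 116.1 and 103.6 in the aged AAV-EGFP libraries and 132.4, 138.1 and 101.5 in the aged AAV-B3GNT3 libraries. All aged libraries of both groups lay below all young ones. The log2 fold change was -0.69 ± 0.12 (SE, n = 3 per group), or 1.61-fold lower (edgeR adjusted p = 0.00739), and 14.6% of the genes tested in excitatory neurons were called. The call remained under 22 of 23 alternatives, with log2 fold changes of -0.76 to -0.63, and was lost with the mitochondrial share of UMIs as a covariate (adjusted p = 0.0923). Over all nuclei of a library Mirg changed by -0.52 ± 0.12 (edgeR adjusted p = 0.0249, lost without young AAV-EGFP replicate 3 or aged AAV-EGFP replicate 2 or 3 and with the mitochondrial covariate).

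In inhibitory neurons Mirg was 219.1, 191.7 and 229.8 CPM in the young AAV-EGFP group and 170.4, 186.0 and 147.0 in the aged AAV-EGFP group. The groups did not overlap. The share of all genes that separated downward in this way is not given here, and upward it was 14.6% of gene-by-class comparisons. The change of Mirg, -0.35 ± 0.15, was not called (edgeR adjusted p = 0.167). It did not differ detectably from that in excitatory neurons (difference 0.31 ± 0.08, edgeR adjusted p = 0.196). Mirg stood at 5.8 to 26.7 CPM in astrocytes and oligodendrocytes, where the fitted changes were -1.15 ± 0.28 (edgeR adjusted p = 0.0176) and -1.03 ± 0.24 (edgeR adjusted p = 0.00946), the first lost without young AAV-EGFP replicate 2 or 3 or aged AAV-EGFP replicate 3. The estimated neuronal background of both classes was also lower, as given with Meg3.

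Meg3, at the start of the same transcribed stretch, was not called in neurons. In excitatory neurons it was 7758, 7083 and 6508 CPM in the young AAV-EGFP, 6260, 7866 and 6405 in aged AAV-EGFP and 7582, 7160 and 6529 in aged AAV-B3GNT3 libraries. The 3 groups overlapped, and the ageing change was -0.06 ± 0.14 (edgeR adjusted p = 0.808). The difference between Meg3 and Mirg was not itself tested. Over the 9 libraries Meg3 and Mirg in excitatory neurons had a Pearson r of 0.353 (p = 0.339, adjusted p = 0.636 over 15 pairs, exact permutation) and a Spearman rho of 0.317 (p = 0.410, adjusted p = 0.879, exact permutation). Without the 2 libraries farthest from the median r was 0.458. The lowest adjusted p of the 15 pairs was 0.103, for Meg3 with Miat (r = 0.732, exact permutation p = 0.00684; rho = 0.717, p = 0.0369, adjusted p = 0.442), whose r was 0.575 without the 2 farthest libraries and 0.849 with group means removed.

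Of the 11 genes listed for the Dlk1-Dio3 domain and its flanks, 8 were tested in excitatory neurons and 1, Mirg, was called with age, where 14.6% of all genes were called. The flanking Wdr25 changed by -0.50 ± 0.17 (edgeR adjusted p = 0.0613), the tRNA synthetase gene Wars by -0.33 ± 0.13, Begain by -0.28 ± 0.16, the phosphatase subunit gene Ppp2r5c by -0.17 ± 0.09, the paternally expressed Rtl1 by -0.36 ± 0.19 and Dlk1, a Notch-pathway ligand, by -0.45 ± 0.53. None of these was called, and the median of the 8 was -0.35 against 0.02 over all genes tested. In oligodendrocytes 3 of 7 fell, Meg3, Mirg and Rtl1, where 21.7% of all genes were called. Rtl1 fell by 1.72 ± 0.53 on the log2 scale (edgeR adjusted p = 0.0342). Rtl1 was at 2.14 CPM there (0.484 to 4.07) and at 20.6 in excitatory neurons, and the estimated neuronal background of oligodendrocytes was 22.7 to 27.7% in young AAV-EGFP and 11.7 to 16.8% in aged AAV-EGFP libraries. Its part in the result was not tested.

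Neat1 rose with age in oligodendrocytes, the class with its highest level. The young AAV-EGFP libraries had 1828, 1145 and 1072 CPM, the aged AAV-EGFP libraries 2751, 2931 and 2553 and the aged AAV-B3GNT3 libraries 1948, 1430 and 1583. Every aged AAV-EGFP library was above all others. The log2 fold change was 1.02 ± 0.19, or 2.03-fold (edgeR adjusted p = 0.00372, with 21.7% of all genes in oligodendrocytes called). With background subtracted it was 0.78 (edgeR adjusted p = 0.0379), and with the mitochondrial share as a covariate 1.07 (edgeR adjusted p = 0.0882). Neat1 also rose in pericytes (1.16 ± 0.26, edgeR adjusted p = 0.0225), from 152.2 to 250.6 CPM in young AAV-EGFP to 311.7 to 520.4 in aged AAV-EGFP libraries, a call lost without young AAV-EGFP replicate 2 or 3 or aged AAV-EGFP replicate 2 or 3 (edgeR adjusted p = 0.0818 to 0.119). The pericyte call was also lost with background subtracted.

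In fibroblasts Neat1 rose by 0.97 ± 0.20 on the log2 scale (edgeR adjusted p = 0.00452), with young libraries at 528.0, 465.5 and 434.2 CPM and aged AAV-EGFP libraries at 628.4, 1033.2 and 1093.4. That call was lost without doublet removal (0.50, edgeR adjusted p = 0.284), with no upper limit on genes per nucleus (0.54, edgeR adjusted p = 0.218) and without aged AAV-EGFP replicate 3 (edgeR adjusted p = 0.0542). It was also lost with background subtracted and in the finer clustering, where the Bnc2 cluster joined the fibroblasts. In neurons Neat1 stayed at 7.06 to 22.5 CPM in every library, with changes of -0.09 ± 0.23 in excitatory and -0.02 ± 0.31 in inhibitory neurons. The ageing change of Neat1 in oligodendrocytes differed from that in excitatory neurons by 1.20 ± 0.20 (edgeR interaction test, adjusted p = 0.000737), where 3.12% of all such tests were called. That share includes genes with few counts in the class compared with excitatory neurons. With background subtracted Neat1 was at 0 in excitatory neurons, so this sets oligodendrocytes against a class with no Neat1 above background.

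Malat1 was higher with age in each of the 9 classes, and no class was called. In excitatory neurons it was 24981, 31748 and 23638 CPM in the young AAV-EGFP, 33584, 37584 and 32461 in aged AAV-EGFP and 22326, 22039 and 24006 in aged AAV-B3GNT3 libraries. The aged AAV-EGFP libraries lay above the other 6. The fitted changes ran from 0.22 to 0.51 on the log2 scale with edgeR adjusted p of 0.0631 to 0.706. At an unadjusted p under 0.05, 7 of 9 classes passed, as did 26.1% of all gene-by-class tests. The aged AAV-EGFP libraries lay wholly above the young ones in 7 classes, as did 14.6% of all gene-by-class comparisons. The classes come from the same libraries and are not independent of each other. All 9 fitted changes remained positive under each of 4 other scalings (0.14 to 0.53).

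Meg3 and Snhg11 fell with age in astrocytes, oligodendrocytes and OPCs and Miat in astrocytes and oligodendrocytes, while none of them was called in neurons. In astrocytes Meg3 was 1111, 1070 and 1113 CPM in the young AAV-EGFP, 623, 516 and 367 in aged AAV-EGFP and 788, 1084 and 757 in aged AAV-B3GNT3 libraries. The aged AAV-EGFP libraries lay below the other 6. The change was -1.13 ± 0.19 for Meg3, -1.05 ± 0.17 for Snhg11 and -1.06 ± 0.19 for Miat (edgeR adjusted p = 0.00194, 0.00156 and 0.00333). In oligodendrocytes the changes were -0.93 ± 0.17, -0.78 ± 0.15 and -0.80 ± 0.23 (edgeR adjusted p = 0.00322, 0.00443 and 0.0248). OPCs had called falls of Meg3 (-0.60 ± 0.15, edgeR adjusted p = 0.0228) and Snhg11 (-0.53 ± 0.15, edgeR adjusted p = 0.0430), and fibroblasts of Meg3 (-1.18 ± 0.19, edgeR adjusted p = 0.000603). The fibroblast call was lost without doublet removal (-0.26, edgeR adjusted p = 0.712) and with no upper limit on genes per nucleus (-0.63, edgeR adjusted p = 0.144). In OPCs 4.97% and in fibroblasts 7.96% of all genes were called. The OPC calls were lost without either of the young AAV-EGFP replicates 2 and 3 or the aged AAV-EGFP replicates 2 and 3 (and that of Snhg11 also without aged AAV-B3GNT3 replicate 1), and Miat in oligodendrocytes without young AAV-EGFP replicate 3 or aged AAV-EGFP replicate 3. Snhg11 and Miat in excitatory neurons changed by 0.10 ± 0.11 and 0.06 ± 0.10. Each of these 9 falls outside neurons differed from the change of the same gene in excitatory neurons (edgeR interaction test, adjusted p of at most 0.00602).

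Beside these falls, the estimated neuronal background of the same classes was also lowest in the aged AAV-EGFP libraries. Its part in the falls was not tested. In astrocytes it was 19.5 to 21.03% in the young AAV-EGFP, 7.90 to 12.4% in aged AAV-EGFP and 14.9 to 19.7% in aged AAV-B3GNT3 libraries. In oligodendrocytes it was 22.7 to 27.7%, 11.7 to 16.8% and 21.7 to 27.9%, and in fibroblasts 22.3 to 24.6%, 10.5 to 11.8% and 16.9 to 20.5%. Of the 7 neuronal genes behind the estimate, 4 fell with age in astrocytes and 3 in oligodendrocytes by edgeR adjusted p, where 12% and 21.7% of all genes were called in either direction. Their summed level was 1161 to 1210, 433 to 857 and 684 to 925 CPM in astrocytes of the 3 groups in the same order. With background subtracted, 12 of the 15 ageing calls could still be tested and 3 of them remained: Mirg in excitatory neurons, Neat1 in oligodendrocytes and Snhg11 in oligodendrocytes (-1.63, edgeR adjusted p = 0.0347). Meg3 in oligodendrocytes was then -2.04 with an adjusted p of 0.477, at a mean level of 29.1 CPM. Mirg in astrocytes and oligodendrocytes and Meg3 in astrocytes were not tested after subtraction. Outside neurons, neuronal genes set the amount subtracted, so a transcript high in neurons is largely removed whatever its source. Loss of a call after subtraction therefore cannot tell RNA from other nuclei from a fall in the class itself. In the finer clustering the oligodendrocyte calls of Meg3, Miat, Mirg and Snhg11 were lost (edgeR adjusted p = 0.0995 to 0.420), as they were with the mitochondrial covariate (edgeR adjusted p = 0.107 to 0.391). In that clustering the class took in a cluster of 337 nuclei with 6217 CPM of Meg3, of which 121 had been excitatory neurons and 215 unnamed.

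**Figure D3:**
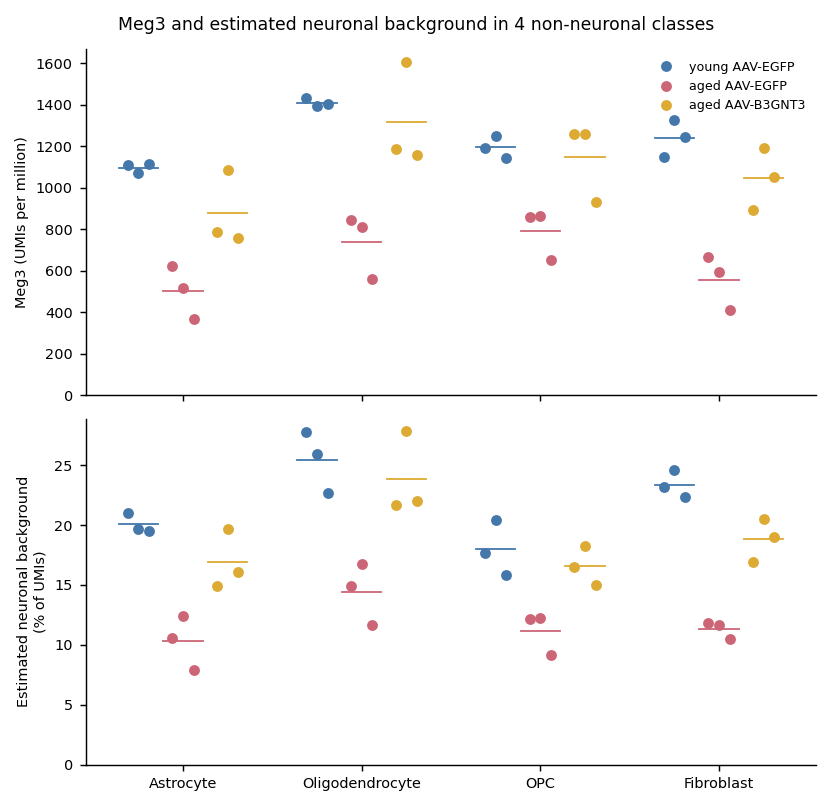
Meg3 (CPM, upper panel) and the estimated neuronal background (percent of UMIs, lower panel) in 4 classes, with 1 point per library and a bar at the group mean. In all 4 classes the aged AAV-EGFP libraries are lowest in both panels, with Meg3 at 367 to 623 CPM and background at 7.90 to 12.4% in astrocytes.

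The second comparison set aged AAV-B3GNT3 against aged AAV-EGFP mice. Here 10 of 52 tests were called, 6 up and 4 down (19.2%, against 2.97% of all gene-by-class tests). Both comparisons share the aged AAV-EGFP libraries, so opposite signs in them are not independent. The number of treatment calls rested on single libraries. It was 0 without aged AAV-B3GNT3 replicate 2 (edgeR, with 17 of 52 at an unadjusted p under 0.05), 4 without aged AAV-EGFP replicate 2, 5 without aged AAV-B3GNT3 replicate 1 and 6 without aged AAV-EGFP replicate 3, and DESeq2 on all libraries called 17. Each of the 10 calls was lost without at least 1 library.

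Malat1 was lower after B3GNT3 in every class. In astrocytes it was 52683, 63380 and 50126 CPM in aged AAV-EGFP and 34195, 33341 and 33150 in aged AAV-B3GNT3 libraries, a log2 fold change of -0.72 ± 0.18 (edgeR adjusted p = 0.0316). In OPCs, where 1.42% of all genes were called, the change was -0.63 ± 0.14 (edgeR adjusted p = 0.0251) and in oligodendrocytes -0.60 ± 0.14 (edgeR adjusted p = 0.0205). Each of these calls was lost with the mitochondrial covariate and without aged AAV-EGFP replicate 2 or aged AAV-B3GNT3 replicate 1 or 2. The astrocyte call was also lost with background subtracted, the replicate block or only the groups compared, and without aged AAV-B3GNT3 replicate 3. The oligodendrocyte call was also lost in the finer clustering. The other 6 classes ran from -0.36 to -0.64 and were not called, with excitatory neurons at -0.60 ± 0.16 (edgeR adjusted p = 0.0636). In 9 of 9 classes the aged AAV-B3GNT3 libraries lay wholly below the aged AAV-EGFP ones, as did 11.4% of all gene-by-class comparisons. The classes come from the same libraries and are not independent of each other. Against the young libraries Malat1 was -0.23 to -0.08 and no class was called (edgeR adjusted p = 0.447 to 0.990).

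Malat1 was set beside a list of 14 genes whose mature messages reflect cytoplasmic RNA or RNA quality. The list was chosen with earlier results of these data known, so its counts are not an independent check. The relation of Malat1 to the list over libraries was not computed. By edgeR adjusted p, 4 of the 14 rose with age in excitatory neurons, 9 in oligodendrocytes and 4 in astrocytes, where 14.6, 21.7 and 12% of all genes were called. After B3GNT3, 4, 12 and 7 fell, where 2.57, 10.0 and 4.79% of all genes were called. Their median changes were 0.46 with age and -0.56 after B3GNT3 in excitatory neurons and 0.86 and -1.24 in oligodendrocytes, against medians of 0.00 to 0.02 over all genes tested. In excitatory neurons Fth1 changed by 1.29 ± 0.21 and -1.49 ± 0.22, the ubiquitin gene Ubb by 1.20 ± 0.22 and -1.46 ± 0.22 and the ribosomal protein gene Rpl13 by 0.67 ± 0.17 and -1.03 ± 0.17. The summed level of the 8 nuclear-encoded genes in oligodendrocytes was 605 to 666 CPM in the young AAV-EGFP, 1129 to 1944 in aged AAV-EGFP and 542 to 642 in aged AAV-B3GNT3 libraries. Its part in the change of Malat1 and of Neat1 was not tested.

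Neat1 fell after B3GNT3 in oligodendrocytes, by 0.73 ± 0.19 on the log2 scale (edgeR adjusted p = 0.0314), and the libraries of both groups given above did not overlap. That call remained under 15 of 23 alternatives. It was lost in the finer clustering (-0.61, edgeR adjusted p = 0.203), with background subtracted (-0.56, edgeR adjusted p = 0.148) and without aged AAV-B3GNT3 replicate 2 (-0.61, edgeR adjusted p = 0.159). It was also lost on raw totals, with the mitochondrial covariate and without aged AAV-EGFP replicate 2 or 3 or aged AAV-B3GNT3 replicate 3. The change differed from that in excitatory neurons by -0.93 ± 0.20 (edgeR interaction test, adjusted p = 0.00957, with 1.53% of all such tests called). That difference was called under 8 of 11 alternatives (highest edgeR adjusted p = 0.0848). In astrocytes Neat1 was 237.7, 449.2 and 435.8 CPM in aged AAV-EGFP and 584.3, 435.1 and 421.0 in aged AAV-B3GNT3 libraries, which overlapped (0.36 ± 0.25, edgeR adjusted p = 0.444).

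Meg3 rose after B3GNT3 in astrocytes, oligodendrocytes and fibroblasts, Snhg11 in astrocytes and oligodendrocytes and Miat in astrocytes. The estimated neuronal background of these classes was also higher than in the aged AAV-EGFP libraries, as given with the ageing change. The summed CPM of the 7 neuronal genes overlapped in astrocytes (433 to 857 in aged AAV-EGFP, 684 to 925 in aged AAV-B3GNT3) and oligodendrocytes (657 to 1146, 1023 to 1310). In fibroblasts it did not (590 to 792, 827 to 1015). The part of this background in the rises was not tested. Meg3 changed by 0.81 ± 0.19 in astrocytes, 0.83 ± 0.17 in oligodendrocytes and 0.94 ± 0.19 in fibroblasts (edgeR adjusted p = 0.0262, 0.0128 and 0.0141), Snhg11 by 0.70 ± 0.17 and 0.69 ± 0.15 in astrocytes and oligodendrocytes (edgeR adjusted p = 0.0293 and 0.0166) and Miat by 0.78 ± 0.20 in astrocytes (edgeR adjusted p = 0.0363). The call in fibroblasts, where 3.15% of all genes were called, was lost without doublet removal (0.10, edgeR adjusted p = 0.928) and with no upper limit on genes per nucleus (0.45, edgeR adjusted p = 0.387). With background subtracted none of these calls that could be tested remained (Meg3 in astrocytes was not tested), and Meg3 in oligodendrocytes was -0.28 (edgeR adjusted p = 0.948). The limit of this subtraction given with the ageing falls holds here too. Mirg in excitatory neurons was 0.18 ± 0.12 after B3GNT3 (edgeR adjusted p = 0.382). In BECs, the cells targeted by the promoter, none of the 5 tested genes was called by edgeR in either comparison, with treatment changes of -0.38 to 0.54. With 45 to 120 nuclei per library, the calls in this class were few over all 4604 genes tested: 0 with age, where 590 had an unadjusted p under 0.05, and 0.239% after B3GNT3. DESeq2 called 26 and 40 genes.

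**Figure D4:**
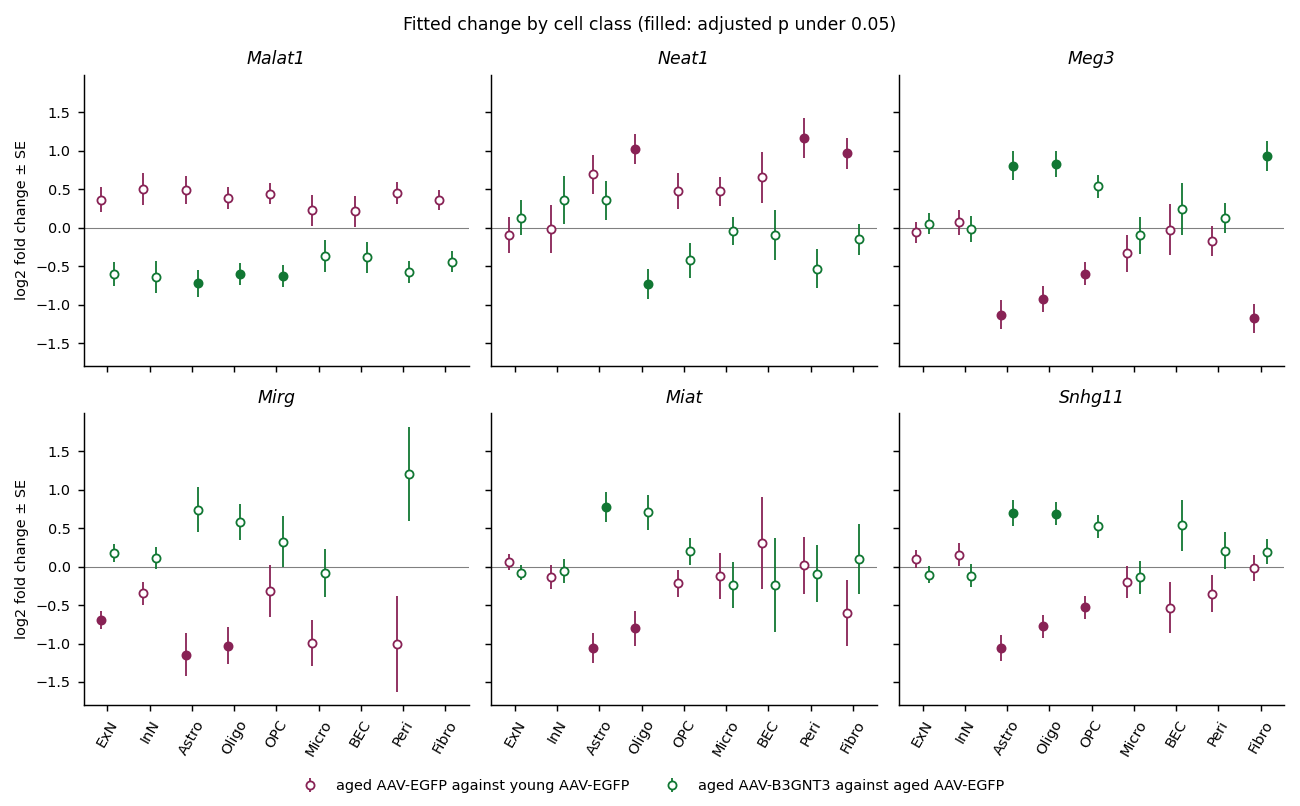
Log2 fold change (points, with SE as bars) of each gene in each class for aged AAV-EGFP against young AAV-EGFP and aged AAV-B3GNT3 against aged AAV-EGFP, filled where the edgeR adjusted p is under 0.05. Malat1 is positive in 9 of 9 classes with age and negative in 9 of 9 after B3GNT3, and Mirg in excitatory neurons falls with age by 0.69. The classes come from the same libraries.

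Set directly against young AAV-EGFP mice, aged AAV-B3GNT3 mice had 2 called tests of 52 (3.85%, against 1.51% of all tests). Mirg in excitatory neurons was at -0.51 ± 0.12 (edgeR adjusted p = 0.0354), and Neat1 in astrocytes at 1.06 ± 0.25 (edgeR adjusted p = 0.0395). In the astrocytes Neat1 was 316.5, 214.7 and 159.3 CPM in young libraries, all below the 3 aged AAV-B3GNT3 libraries given above. No test was called without young AAV-EGFP replicate 2 or 3, aged AAV-EGFP replicate 2 or aged AAV-B3GNT3 replicate 1 or 3 (edgeR, with 4 to 6 of 52 or 53 at an unadjusted p under 0.05). The fitted change of Neat1 was positive in 9 of 9 classes, which share their libraries, from 0.04 to 1.06.

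Genes for proteins of paraspeckles, and then of nuclear speckles, were counted beside these RNAs. Of 17 paraspeckle protein genes in excitatory neurons, 4 fell with age and none rose by edgeR adjusted p, where 14.6% of all genes were called. They included the RNA-binding coactivator gene Rbm14 (-0.75 ± 0.19, edgeR adjusted p = 0.0223), the splicing factor gene Hnrnpa1 (-0.48 ± 0.14, edgeR adjusted p = 0.0425) and Sfpq, a core paraspeckle protein (-0.46 ± 0.10, edgeR adjusted p = 0.0145). In oligodendrocytes 4 of 17 fell, near the 21.7% of all genes called, among them Sfpq (-0.47 ± 0.11) and Dazap1 (-0.41 ± 0.12). The medians of the 17 were -0.17 and -0.10, against 0.02 over all genes tested in each class. After B3GNT3 none of the 17 was called by edgeR in either class, where 2.57 and 10.0% of all genes were called.

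Of 21 nuclear speckle protein genes, 1 rose and 4 fell with age in excitatory neurons, with Srsf6 at -0.87 ± 0.15, the splicing factor kinase gene Clk1 at -0.66 ± 0.11 and Tra2a at -0.66 ± 0.18. In oligodendrocytes 1 rose (Pnn, 0.59 ± 0.12) and 2 fell (Clk1, -0.61 ± 0.12, and Srsf6, -0.53 ± 0.16), and Clk1 rose after B3GNT3 by 0.43 ± 0.12 (edgeR adjusted p = 0.0353). Of 4 splicing factors bound by Miat, none was called with age in either class, and Celf3 fell after B3GNT3 in excitatory neurons (-0.53 ± 0.10, edgeR adjusted p = 0.0337). Among all genes, 14.6 and 21.7% were called with age in these classes, and 2.57 and 10.0% after B3GNT3.

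Other long noncoding RNAs gave a mixed picture. In excitatory neurons 2 of 11 rose and 3 fell with age, where 14.6% of all genes were called, led by Dlx6os1, an antisense transcript of interneurons (-1.74 ± 0.44), Snhg20 (0.83 ± 0.19) and Pantr1 (-0.69 ± 0.11). In oligodendrocytes, where 21.7% were called, 2 of 10 rose and 3 fell, led by Rmst (-1.74 ± 0.29), Dlx6os1 (-1.64 ± 0.31) and Pantr1 (-1.19 ± 0.20). After B3GNT3, A330008L17Rik rose in both classes (0.55 ± 0.12 and 0.78 ± 0.17) and Rmst in oligodendrocytes (1.36 ± 0.29, edgeR adjusted p = 0.0156), where 2.57 and 10.0% of all genes were called. The estimated neuronal background of oligodendrocytes, given above, was lower in the aged AAV-EGFP libraries than in both other groups, and its part in the changes of Rmst and Dlx6os1 was not tested. Myelin genes, taken as a sign of oligodendrocyte RNA in neurons, had 2 of 5 fall with age in excitatory neurons, where 14.6% of all genes were called, Mbp by 0.80 ± 0.15 and Mobp by 0.72 ± 0.17 on the log2 scale. After B3GNT3 1 of the 5 rose, Mbp by 0.67 ± 0.15 (edgeR adjusted p = 0.0421), where 2.57% were called. Their summed level there was 170 to 189 CPM in the young AAV-EGFP, 88.7 to 130 in aged AAV-EGFP and 148 to 181 in aged AAV-B3GNT3 libraries.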

How the data were processed

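The authors isolated nuclei from cortex and hippocampus, sorted them with Hoechst and captured them with a 10x 3′ kit. The deposited matrices hold raw UMI counts per gene and barcode, not normalized. The submitters' processing notes name Cell Ranger 4.0.0 and mm10, while the matrix headers name Cell Ranger 7.2.0. Barcodes were required to have 200 to 5000 genes and no more than 10% mitochondrial UMIs. Doublets were removed at a preset rate of 0.8% per 1000 barcodes, by the share of simulated doublets among neighbours. Clusters were made with leidenalg 0.10.2 from 2000 variable genes without the listed RNAs (15 components, resolution 0.3, and 1.0 for the finer clustering). UMIs were summed per class and library. Genes passed filterByExpr at a minimum count of 10, TMM factors were applied, and edgeR 4.0.16 (R 4.3.3) fitted all 9 libraries of a class together. Differences between classes used the interaction of class and group with library as a term. The count filter there took both classes together, so a gene could pass on its counts in excitatory neurons alone. The tests were tried on simulated data, and DESeq2 1.42.0 was an alternative. The listed RNAs, gene lists and tests were chosen with earlier results of these data known. From each list the genes named are up to 3 past the threshold with the largest change in excitatory neurons and in oligodendrocytes, and all of the Dlk1-Dio3 list, except 1 that is not reported here. Clusters described singly were chosen after their values were seen.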

Additional observations from a re-analysis of the deposited data

Results flagged for a closer look

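Changes that differed between excitatory neurons and another class numbered 22 in a test of the difference itself (edgeR interaction, 48 tests per comparison, 12 called with age and 10 after B3GNT3, where 3.12 and 1.53% of all such tests were called). A gene could enter by its counts in excitatory neurons alone. Those shares therefore include genes with few counts in the other class and are not a like comparison for abundant RNAs. For the ageing change, astrocytes differed from excitatory neurons by -1.26 for Snhg11, -1.21 for Miat and -1.20 for Meg3 on the log2 scale, and oligodendrocytes by -0.89 for Snhg11, -0.89 for Miat, -0.89 for Meg3 and 1.20 for Neat1. OPCs differed by -0.63 for Snhg11 and -0.54 for Meg3, pericytes by 1.13 for Neat1 and fibroblasts by -1.41 for Meg3 and 0.84 for Neat1. For the change after B3GNT3, astrocytes differed by 0.87 for Snhg11, 0.92 for Miat and 0.83 for Meg3, and oligodendrocytes by 0.79 for Snhg11, 0.80 for Miat, 0.77 for Meg3 and -0.93 for Neat1. OPCs differed by 0.65 for Snhg11 and 0.49 for Meg3, and fibroblasts by 1.11 for Meg3. The estimated neuronal background was lowest in the aged AAV-EGFP libraries in astrocytes, oligodendrocytes, OPCs and fibroblasts, and its part in the differences of Snhg11, Miat and Meg3 was not tested. The level of Neat1 in excitatory neurons was 15.03 CPM, and 0 with background subtracted, where values were cut at 0. Of the 22, 12 passed the test under all 11 alternatives run for it, which left out each library in turn, kept doublets or took totals without the listed RNAs. The 10 calls after B3GNT3 became 5 without aged AAV-B3GNT3 replicate 2 and 6 without aged AAV-EGFP replicate 2 or 3. Without doublet removal the fibroblast differences were -0.51 for Meg3 and 0.52 for Neat1 with age (edgeR adjusted p = 0.626 and 0.544) and 0.32 for Meg3 after B3GNT3 (edgeR adjusted p = 0.826). Without aged AAV-EGFP replicate 3 the difference of Neat1 with age was 0.41 in fibroblasts and 0.75 in pericytes (edgeR adjusted p = 0.588 and 0.455).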

How the results depend on the processing

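The 15 ageing calls became 9 with the mitochondrial share of UMIs as a covariate and 3 with background subtracted, and 10 to 18 when each library was left out in turn. Of the 15, 8 and 3 remained under the first 2. The ageing count was 11 with the finer clustering, where 9 of the 15 remained, and 20 without the low-count filter, where all 15 did. The 10 treatment calls became 17 with DESeq2, 2 with the mitochondrial covariate, 6 with the finer clustering and 3 with background subtracted, and 0 to 11 with a library left out. The 2 calls against young mice became 1 on raw totals, 4 without the low-count filter, 4 with only the groups compared in the fit, 1 with the replicate block, 1 with the mitochondrial covariate and 1 with background subtracted, and 0 to 3 with a library left out. The 12 interaction calls with age ranged from 10 to 14 and the 10 after B3GNT3 from 5 to 11 with a library left out. Of 48 neighbouring pairs of classes 24 were called, and 17 to 24 under the alternatives. The only called value to change sign was Meg3 in oligodendrocytes after B3GNT3, -0.28 with background subtracted. The cause of these shifts was not tested, except that background subtraction left fewer tests (40 in place of 52, without 3 of the 15 ageing calls and 1 of the 10 treatment calls) and a library left out fewer samples. Whether the replicate numbers pair the samples was not settled. The deviations of same-numbered libraries had correlations of -0.30 to 0.37 in excitatory neurons, over 0.1 in 3 of 9 pairs. Over all nuclei they ran from -0.26 to 0.52, over 0.1 in 2 of 9 pairs. Libraries of unlike numbers were not compared. With the replicate block the ageing count was 15 and the treatment count 11. Inhibitory neurons without the 6441 nuclei of the clusters led by Rarb and by Adarb2 with Ankfn1, an alternative chosen after seeing the data, gave counts of 15, 11 and 2. The clusters were picked by Drd2, or Foxp2 with Lef1, among their top genes. Only the 6 inhibitory tests of each comparison could change, and 0, 1 and 0 of them were called. Mirg counts in BECs and fibroblasts were below the count filter, and Mirg was not tested within those classes. It was among the 48 interaction tests for them, where its counts in excitatory neurons let it pass.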
